A study of Mus musculus with 12 samples.

Results

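The 10 genes described here, Atf4, Ddit3, Trib3, Chac1, Asns, Sesn2, Xbp1, Hspa5, Dnajb9 and Sdf2l1, belong to the unfolded protein response and the integrated stress response. They were taken by gene name from the 32867 genes of the expression table, where each of the 10 has 1 row. Whole retinae were sequenced as bulk RNA in 4 groups of 3 samples, 12 in all. Pde6b rd1 mice carry a mutation of Pde6b, the beta subunit of the rod phosphodiesterase, and were taken at postnatal day 13. Pde6b rd10 mice carry another mutation of the same gene and were taken at day 23, and Prph rd2 mice carry a mutation of the gene for peripherin (Prph2), a protein of the photoreceptor outer segment discs, and were taken at day 29. C3H mice, with wild-type alleles of both genes, were the controls, and their 3 samples were labelled day 13, day 23 and day 29, 1 sample each. The models were untreated and each day was chosen by the study as the peak of photoreceptor death in that model. By the methods, Pde6b rd1 and Prph rd2 were on a C3H background and Pde6b rd10 on C57Bl6/J, whereas the labels give Prph rd2 as C57BL6/J. Genotype and strain cannot be told apart in Pde6b rd10, nor in Prph rd2 if its label holds, and each model has only 1 C3H sample labelled with its own day. Nothing in the labels says whether a sample was 1 animal or a pool. The p-values measure the spread between these samples, which may differ from the spread between animals.

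When unfolded proteins gather in the endoplasmic reticulum, the sensors PERK, IRE1 and ATF6 start separate arms of a response. PERK is also 1 of the kinases that phosphorylate the translation factor eIF2, which slows protein synthesis in general while the transcription factor ATF4 is translated, and this shared step is the integrated stress response. ATF4 acts on genes of amino acid supply and redox balance and on Ddit3, which encodes CHOP. IRE1 splices the Xbp1 transcript, and XBP1 and ATF6 act on chaperones and on degradation at the endoplasmic reticulum. Photoreceptors make large amounts of membrane protein for their outer segments, and these pathways have long been studied in retinal degeneration. The counts used here are per gene, so that splicing of Xbp1, translation of Atf4 and phosphorylation of eIF2 were not measured.

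Some of the promoters hold the short DNA elements through which these factors are known to act. In the 250 bases before the RefSeq start of each gene on both strands, the composite element TGATGNAA, which C/EBP and ATF factors share, was found in 2 of the 10 genes and in 3.45% of 32851 promoters. The endoplasmic reticulum stress element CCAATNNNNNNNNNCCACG was found in 1 of the 10 genes and in 0.113% of promoters. The related element ATTGGNCCACG was found in none of the 10 and in 0.0304% of promoters, and TGACGTGG in none of the 10 and in 0.563%. The letters CCACG, which both stress elements contain, were in 7 of the 10 genes and in 28.3% of promoters. All 3 matches to the longer elements are shown, and they lie in Chac1, Asns and Hspa5. Each stretch of 30 bases is from RefSeq on GRCm38.p6, read 5′ to 3′ on the strand of the gene, with the match in capitals. The match in Chac1 is to the element on the opposite strand.
Chac1 chr2:119351038-119351067, plus strand: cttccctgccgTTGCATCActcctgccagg
Asns chr6:7693214-7693243, minus strand: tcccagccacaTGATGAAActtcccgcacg
Hspa5 chr2:34772020-34772049, plus strand: cttcaCCAATCGGAGGCCTCCACGacgggg
The matches begin 193, 23 and 65 bases before the RefSeq starts of Chac1, Asns and Hspa5. GENCODE vM21 places the 5′ ends of Asns and Hspa5 farther upstream, so that these 2 matches lie inside the genes as GENCODE draws them. A match of letters is a description and not evidence that a factor was bound in these retinae.

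The gene counts of a sample summed to between 17049495 and 24755890 reads. Levels are given as CPM, the share of a library scaled to a fixed total, after edgeR's TMM normalization, and as FPKM where genes are compared with each other, since FPKM divides by gene length. A gene was called where edgeR's quasi-likelihood test gave a Benjamini-Hochberg adjusted p under 0.05 over all genes tested, and every adjusted p below is from that test. Log2 fold changes are given with their standard errors (SE). All 10 genes passed the filter on low counts in every comparison, and their counts ran from 38 for Chac1 in a C3H sample to 8601 for Hspa5 in a Prph rd2 sample. The mutated genes matched the labels in so far as Pde6b was lowest in Pde6b rd1, at 277 ± 1.34 CPM (SD, n = 3) against 1264 ± 16.0 in C3H, and Prph2 was lowest in Prph rd2, at 1372 ± 86.8 against 2868 ± 164. The summed level of 5 rod markers was 24179 to 25056 CPM in C3H, 20956 to 21951 in Pde6b rd10, 15495 to 16643 in Prph rd2 and 11282 to 11346 in Pde6b rd1. In bulk samples, fewer cells of a type and less RNA per cell cannot be told apart. The groups also differed in sex. Xist was at 0.386 to 0.518 CPM in C3H and 3660 to 3893 CPM in Pde6b rd1, and the Y-linked Ddx3y was at 77.8 to 86.9 CPM in C3H and at 0 in the 3 Pde6b rd1 samples. Prph rd2 and Pde6b rd10 had intermediate levels of both genes, with Xist at 1560 to 1982 and 715 to 802 CPM. Each of their samples held both Xist and Ddx3y, as a pool of both sexes would. In Pde6b rd1 against C3H, sex and genotype cannot be told apart, and the C3H samples also carry later labelled days. Across their labelled days, the C3H samples summed to 455 to 462 CPM in 5 cone markers and 2739 to 2808 in 5 Mueller glia markers. Pde6b rd1, at day 13, was at 265 to 274 and 1370 to 1419 CPM. Whether the day labels of the C3H samples hold was not tested, and the same-day values below rest on them. Sex make-up also differed with genotype in the other comparisons, and its part in the values was not tested.

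In C3H retinae, the 10 genes differed widely in level. Atf4, the transcription factor of the integrated stress response, was at 68.4 ± 1.60 FPKM (SD, n = 3), and Hspa5, which encodes the chaperone BiP of the endoplasmic reticulum, at 65.5 ± 1.26 FPKM. The difference between these neighbours was slightly larger than the sum of their SDs. Xbp1, the transcription factor downstream of IRE1, followed at 22.0 ± 0.766 FPKM and Dnajb9, a co-chaperone of BiP, at 13.1 ± 0.862 FPKM. Asns, which makes asparagine, was at 9.01 ± 0.223 FPKM. Sesn2, a stress-induced inhibitor of mTORC1 signalling, was at 6.92 ± 0.258 FPKM and Ddit3 at 6.03 ± 0.287 FPKM. Sdf2l1, a partner of BiP, was at 3.82 ± 0.211 FPKM. Trib3, a pseudokinase that ATF4 and CHOP induce and that restrains them, was at 1.63 ± 0.0799 FPKM, and Chac1, which degrades glutathione, at 1.23 ± 0.0501 FPKM.

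**Figure D1:**
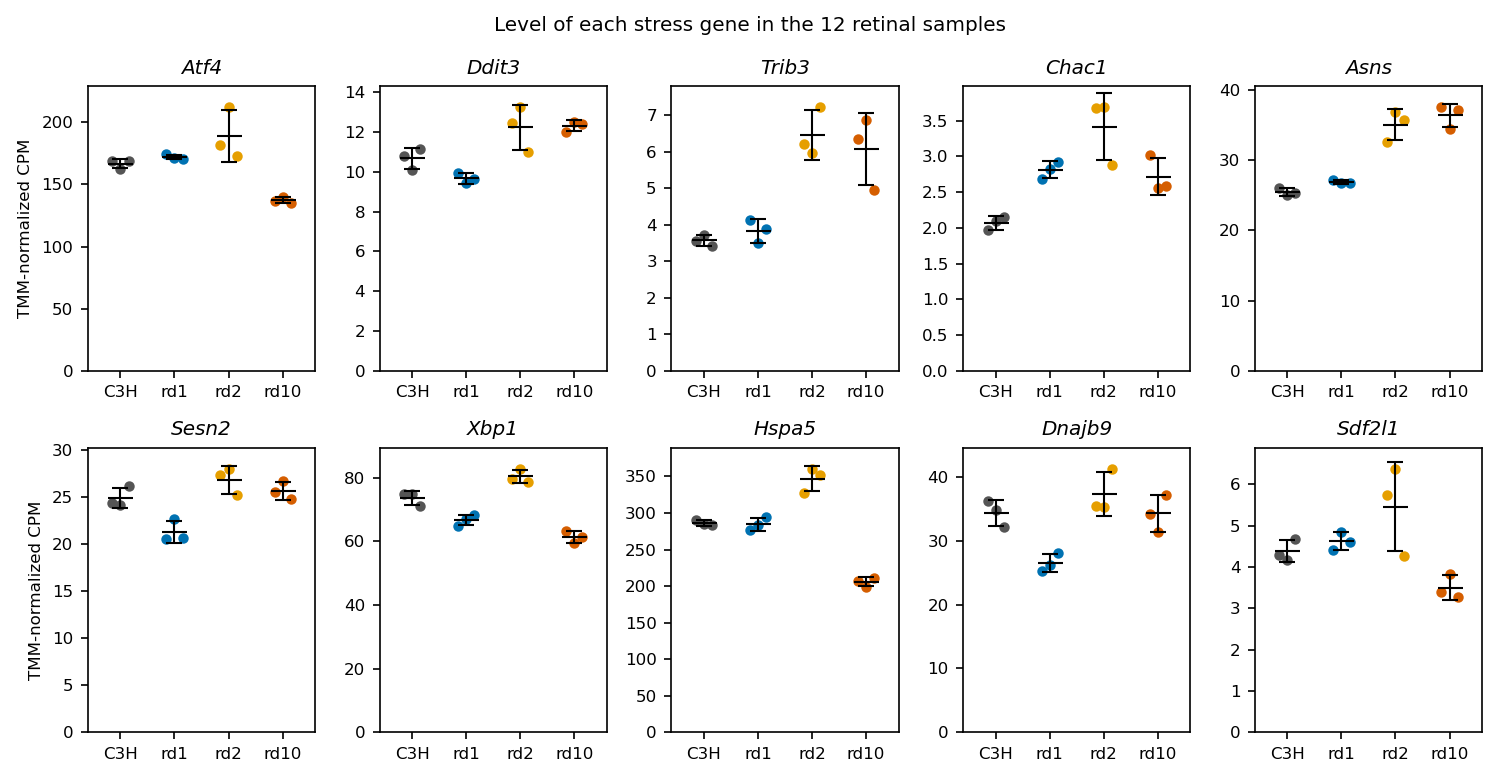
TMM-normalized CPM of each of the 10 genes (y axis, from 0) in the 3 samples of C3H, Pde6b rd1 (rd1), Prph rd2 (rd2) and Pde6b rd10 (rd10), with points for samples and black bars for the mean and SD. Trib3 and Asns were above all C3H samples in Prph rd2 and Pde6b rd10, and Hspa5 was above them in Prph rd2 and below them in Pde6b rd10.

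In Prph rd2, 4 of the 10 genes were higher than in C3H and none was lower: Trib3, Chac1, Asns and Hspa5. Of all 18581 genes tested in this comparison, 9.7% were called, 4.53% as higher and 5.17% as lower. All 10 estimates were above 0, with a median log2 fold change of 0.24, against -0.0012 over all genes tested. In 6 of the 10 genes the groups did not overlap, all with Prph rd2 higher, and 14.6% of all genes tested had this pattern.

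Trib3 was at 3.57, 3.73 and 3.42 CPM in the C3H samples and at 6.21, 5.96 and 7.23 CPM in the Prph rd2 samples. Its log2 fold change was 0.85 (SE 0.14, adjusted p = 9.68e-04). Each of the 3 Prph rd2 samples was above each C3H sample. Asns was at 26.0, 24.98 and 25.4 CPM in C3H and at 32.6, 36.8 and 35.8 CPM in Prph rd2, a log2 fold change of 0.46 (SE 0.07, adjusted p = 4.08e-04), again without overlap. Chac1 was at 1.97, 2.103 and 2.15 CPM in C3H and at 3.68, 3.69 and 2.88 CPM in Prph rd2, a log2 fold change of 0.72 (SE 0.18, adjusted p = 0.0232). The third Prph rd2 sample was the lowest of its group and still above C3H. The Chac1 call was lost without Prph rd2 replicate 1 (adjusted p = 0.0843) and without any 1 of the C3H replicates (0.0688 to 0.0829).

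Hspa5 was at 291, 285 and 283 CPM in C3H and at 328, 361 and 352 CPM in Prph rd2. The log2 fold change was 0.28 (SE 0.05, adjusted p = 0.00146), the smallest of the 4 called. Its group did not overlap with C3H. Atf4, at 181, 212 and 173 CPM against 169, 162 and 169, gave 0.18 (SE 0.06) and was not called (adjusted p = 0.0985), although the groups did not overlap. The second Prph rd2 sample stood above the other two. Xbp1 gave 0.13 (SE 0.05, adjusted p = 0.144) and Sdf2l1, with 5.73, 6.38 and 4.26 CPM against 4.30, 4.16 and 4.68, gave 0.32 (SE 0.16, adjusted p = 0.236). For Sdf2l1, the third Prph rd2 sample lay inside the C3H range. Ddit3, Sesn2 and Dnajb9 gave 0.20, 0.11 and 0.12, with adjusted p-values of 0.241, 0.372 and 0.371. Against the C3H sample labelled with the same day alone, the log2 fold changes of Trib3, Chac1, Asns and Hspa5 were 0.93, 0.67, 0.47 and 0.30. With 1 C3H sample, the spread within C3H cannot be estimated, so these values are a description only.

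In Pde6b rd10, the 10 genes moved in both directions: 2 were higher than in C3H, Trib3 and Asns, and 3 were lower, Hspa5, Atf4 and Xbp1. Of the 18704 genes tested, 54.1% were called, 27.7% as higher and 26.3% as lower, so the share of the 10 that was called was near that of all genes. Trib3 was at 6.36, 6.87 and 4.97 CPM, a log2 fold change of 0.76 (SE 0.15, adjusted p = 1.84e-04). Asns was at 37.6, 34.5 and 37.2 CPM, a log2 fold change of 0.52 (SE 0.06, adjusted p = 5.63e-07). Both genes were above the C3H range in each of the 3 samples. Chac1 was at 3.02, 2.56 and 2.58 CPM, also above C3H in each sample, and was not called (log2 fold change 0.40, SE 0.18, adjusted p = 0.0743). Ddit3 was at 12, 12.5 and 12.4 CPM against 10.8, 10.1 and 11.1 in C3H and was not called either (0.20, SE 0.09, adjusted p = 0.0611).

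Hspa5 was at 207, 199 and 211 CPM in Pde6b rd10, below each C3H sample, and fell by 0.48 on the log2 scale (SE 0.04, adjusted p = 9.96e-10). Atf4 was at 137, 140.2 and 135 CPM and fell by 0.28 (SE 0.04, adjusted p = 5.99e-06). Xbp1, at 75.0, 74.8 and 71.3 CPM in C3H, was at 63.2, 59.5 and 61.5 CPM and fell by 0.26 (SE 0.05, adjusted p = 1.13e-04). The chaperone and both transcription factors were thus below the C3H range in every Pde6b rd10 sample, while Trib3 and Asns were above it. With Chac1 and Ddit3, 4 of the 10 genes were above C3H without overlap, and with Sdf2l1 4 were below it, against 30.4% and 28.8% of all genes tested. Sdf2l1 was at 3.38, 3.84 and 3.28 CPM, below C3H in each sample, with a log2 fold change of -0.33 (SE 0.15, adjusted p = 0.0645). Sesn2 and Dnajb9 gave 0.04 (SE 0.07) and -0.0068 (SE 0.07), with groups that overlapped. The summed level of 6 microglia and macrophage markers was 135 to 147 CPM in Pde6b rd10 and 44.4 to 47.6 CPM in C3H, with all 6 called higher and none at 0. All 5 cone markers were also higher, with a sum of 659 to 667 CPM against 455 to 462 in C3H. All 5 bipolar cell markers were lower, with 1609 to 1633 CPM against 1874 to 1931. Of 5 Mueller glia markers, 2 were higher and 3 lower, with a sum of 2403 to 2505 CPM against 2739 to 2808. Among them, Gfap was at 332 to 366 CPM against 36.7 to 39.4 in C3H. Their part in the values of the 10 genes was not tested.

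In Pde6b rd1, none of the 10 genes was called higher and 3 were called lower: Dnajb9, Sesn2 and Xbp1. Of the 18310 genes tested, 43.2% were called, 21.9% as higher and 21.3% as lower. Dnajb9 was at 36.2, 34.8 and 32.2 CPM in C3H and at 25.2, 26.2 and 28.1 CPM in Pde6b rd1, and fell by 0.35 on the log2 scale (SE 0.06, adjusted p = 6.25e-05). Sesn2 was at 24.3, 24.2 and 26.1 CPM in C3H and at 20.5, 22.6 and 20.6 CPM in Pde6b rd1, and fell by 0.20 (SE 0.07, adjusted p = 0.0160). Xbp1 was at 65.0, 67.2 and 68.1 CPM and fell by 0.12 (SE 0.04, adjusted p = 0.0292). In these 3 genes and in Ddit3, 4 of the 10, each Pde6b rd1 sample was below each C3H sample, a pattern that 28.5% of all genes tested had. DESeq2 called only Dnajb9 of them, with adjusted p-values of 0.0654 for Sesn2 and 0.0812 for Xbp1. By limma on the FPKM values, 4 of the 10 genes were higher (Atf4, Chac1, Asns and Hspa5) and 1 was lower. The direction of the calls in Pde6b rd1 thus differed between edgeR on the counts and limma on FPKM, which change the test and the scaling together. The shares of all genes tested that DESeq2 and limma called are not given here, so these counts have no background beside them. With RLE size factors in place of TMM, the 3 genes were still called lower and Chac1 was called higher (adjusted p = 0.0492). The summed level of 5 Mueller glia markers was 1369.8 to 1419 CPM in Pde6b rd1 and 2739 to 2808 CPM in C3H, with 3 called lower and none at 0. Of these, Glul alone was at 600 to 624 CPM against 1789 to 1856 in C3H, while Slc1a3 and Gfap overlapped with C3H. All 5 rod and all 5 cone markers were lower. The part of these cell types in the values of the 10 genes was not tested.

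Chac1 was at 2.69, 2.82 and 2.93 CPM in Pde6b rd1, above each C3H sample, with a log2 fold change of 0.46 (SE 0.19, adjusted p = 0.0507). Atf4 was at 174, 172 and 170.5 CPM and Asns at 27.2, 26.7 and 26.8 CPM, log2 fold changes of 0.07 (SE 0.03) and 0.10 (SE 0.06). These small differences were not called, although neither group overlapped with C3H. In all, 3 of the 10 genes were above C3H without overlap, against 23.2% of all genes tested. Hspa5, at 276, 283 and 294 CPM, spanned the C3H range. Trib3, at 4.14, 3.50 and 3.89 CPM, and Sdf2l1, at 4.41, 4.85 and 4.59 CPM, also overlapped with C3H. Ddit3 was at 9.97, 9.42 and 9.64 CPM, with a log2 fold change of -0.11 (SE 0.09, adjusted p = 0.356). By the thresholds of the study, a 1.5-fold change or more with an unadjusted p under 0.05, 0 of the 10 genes passed in Pde6b rd1, 1 in Pde6b rd10 (Trib3) and 2 in Prph rd2 (Trib3 and Chac1). Of all genes tested, 15%, 23.9% and 4.57% passed these thresholds in the 3 comparisons.

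**Figure D2:**
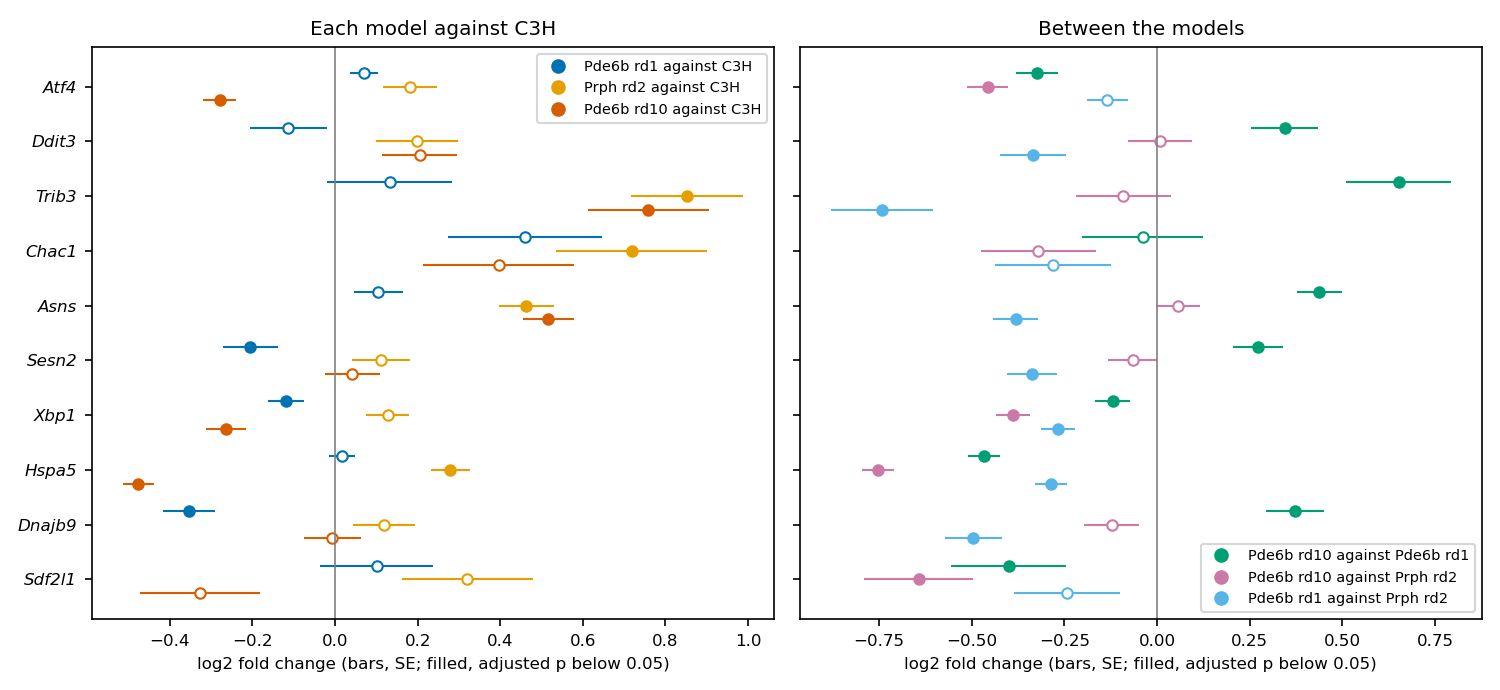
Log2 fold change (x axis) of each of the 10 genes (y axis) for each model against C3H (left) and between models (right), with bars for the SE and filled points for an adjusted p under 0.05. Hspa5 was at 0.28 in Prph rd2 and -0.48 in Pde6b rd10, and Trib3 was at 0.85 and 0.76.

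The models were also compared with each other in 1 fit of all 12 samples, which tests the difference between groups itself. The models also differ in day and sex make-up and, by the methods, Pde6b rd10 differs in strain. Genotype cannot be told apart from these in the differences below. Pde6b rd10 and Pde6b rd1, which share the mutated gene, differed in 9 of the 10 genes, with Chac1 the exception (log2 fold change -0.04, SE 0.16). Of all 19616 genes tested, 57.2% differed, 30.2% as higher and 27% as lower in Pde6b rd10. Ddit3, Trib3, Asns, Sesn2 and Dnajb9 were higher in Pde6b rd10, by 0.34, 0.65, 0.44, 0.27 and 0.37 on the log2 scale. Atf4, Xbp1, Hspa5 and Sdf2l1 were lower in Pde6b rd10, with log2 fold changes of -0.32, -0.12, -0.47 and -0.40. The calls of Xbp1 and Sdf2l1 were each lost when certain single replicates were left out, with adjusted p-values up to 0.129 and 0.0923.

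Pde6b rd10 and Prph rd2 differed in 4 of the 10 genes, all lower in Pde6b rd10, where 43.9% of all genes tested differed, 22.6% as higher and 21.3% as lower. Hspa5 gave the largest difference of the 10, -0.75 (SE 0.04, adjusted p = 1.10e-11), followed by Sdf2l1 at -0.64 (SE 0.15), Atf4 at -0.46 (SE 0.06) and Xbp1 at -0.39 (SE 0.05). Trib3 (-0.09, SE 0.13), Asns (0.06, SE 0.06) and Ddit3 (0.0083, SE 0.09) were not called between these models. Pde6b rd1 was lower than Prph rd2 in 7 of the 10 genes, Ddit3, Trib3, Asns, Sesn2, Xbp1, Hspa5 and Dnajb9, and higher in none. Of all genes tested, 39.8% differed, 18.5% as higher and 21.3% as lower in Pde6b rd1. The 7 differences ran from -0.27 for Xbp1 to -0.74 for Trib3.

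Over the 12 samples, the 10 genes did not vary as 1 group. Hspa5 went with Atf4 (Pearson's r of log2 CPM 0.93), Xbp1 (0.92) and Sdf2l1 (0.82), and Trib3 with Asns (0.89) and Ddit3 (0.71). Between these sets, r was -0.09 for Hspa5 and Trib3 and -0.14 for Atf4 and Trib3. These values describe 12 samples that fall into 4 groups, so differences between groups enter them. Of all genes tested, the levels most like those of Hspa5 were those of Cryz (r = 0.98), Vps45 (0.98) and Hsph1 (0.98). For Trib3 they were those of 2010111I01Rik (0.97), A330023F24Rik (0.94) and Glo1 (0.93), for Ddit3 those of Spx (0.96), Kcnk12 (0.96) and Notch2 (0.96), and for Sdf2l1 those of Gm12696 (0.94), Atf4 (0.94) and Ubtf (0.92).

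Another 104 genes of these pathways, in 5 lists, were set beside the 10. The counts in Pde6b rd10 stand beside 27.7% higher and 26.3% lower over all genes tested. There, the chaperones and folding enzymes of the endoplasmic reticulum counted 1 higher and 10 lower of 18, with a median log2 fold change of -0.19 against -0.0025 over all genes tested. Calr (calreticulin, -0.49, SE 0.04), Hsp90b1 (GRP94, -0.48, SE 0.04) and Txndc5 (a disulfide isomerase, -0.70, SE 0.05) fell. The genes of degradation and translocation at the endoplasmic reticulum counted 4 higher and 11 lower of 25. In the same retinae, the feedback regulators and transcription factors counted 7 higher and 1 lower of 11, with a median of 0.38. Nupr1 rose by 4.52 (SE 0.20), Cebpb by 2.49 (SE 0.14) and Atf3, a stress-induced partner of the ATF family, by 2.30 (SE 0.13). The list of ATF4 and CHOP targets outside the endoplasmic reticulum counted 15 higher and 8 lower of 35. Slc7a11, the cystine transporter, rose by 2.42 (SE 0.10), while Psat1, of serine synthesis, gave -0.70 (SE 0.06) and Cth, of cysteine synthesis, -1.51 (SE 0.12). Among the sensors and eIF2 kinases, 4 were higher and 4 lower of 15, shares near those of all genes, with Eif2ak2, the kinase PKR, at 1.76 (SE 0.09).

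In Prph rd2, the ATF4 and CHOP targets counted 10 higher and 1 lower of 35, with a median of 0.11, against -0.0012 over all genes tested, of which 4.53% were higher and 5.17% lower. The calls over all 104 genes in Prph rd2 numbered 20, and from 8 to 25 when 1 replicate was left out. They were 10, 8 and 12 without C3H replicates 1, 2 and 3, and 12 without Prph rd2 replicate 1. The shares of all genes tested that these fits called are not given here, so the counts have no background beside them. Among the higher targets were Mthfd2 of mitochondrial folate metabolism (0.68, SE 0.11), the tRNA synthetases Mars (0.35, SE 0.06) and Gars (0.26, SE 0.05), and the glycine transporter Slc6a9 (0.30, SE 0.06), which was also on the list of amacrine cell markers. Ddit4 was the 1 lower gene (-0.34, SE 0.08). Atf3 rose by 1.34 (SE 0.14) in the list of feedback regulators and transcription factors, which counted 2 higher and 0 lower of 11. The chaperone list counted 1 higher and 1 lower of 18, with Pdia6 higher (0.19, SE 0.05) and Ppib lower (-0.24, SE 0.06). The degradation and translocation list counted 1 higher and 2 lower of 25. Herpud1 was higher (0.34, SE 0.07), and Sec61a1 (-0.25, SE 0.05) and Erlec1 (-0.21, SE 0.06) were lower. The sensors and kinases counted 1 higher and 1 lower of 15, with Eif2ak3 higher (0.25, SE 0.06) and Eif2ak2 lower (-0.48, SE 0.12). In Pde6b rd1, 15 of the 102 genes tested were higher and 14 lower, a smaller share than the 43.2% of all genes. Atf3 rose in this model as well, by 0.81 (SE 0.16), and was the 1 pathway gene past the thresholds of the study there. The PERK gene Eif2ak3 (0.33, SE 0.05) and the ATF6 protease gene Mbtps2 (0.47, SE 0.06) were higher. Slc38a2 (0.41, SE 0.04), Aldh18a1 (0.48, SE 0.06) and Slc7a1 (0.27, SE 0.05) of amino acid transport and synthesis were higher too. Eif2ak3 was also called higher in Pde6b rd10 (0.30, SE 0.05), as it was in Prph rd2. Atf5 (-0.43, SE 0.08), Crebrf (-0.23, SE 0.04), Ddit4 (-0.24, SE 0.05), Slc6a9 (-0.42, SE 0.04) and Vldlr (-0.24, SE 0.03) were lower.

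**Figure D3:**
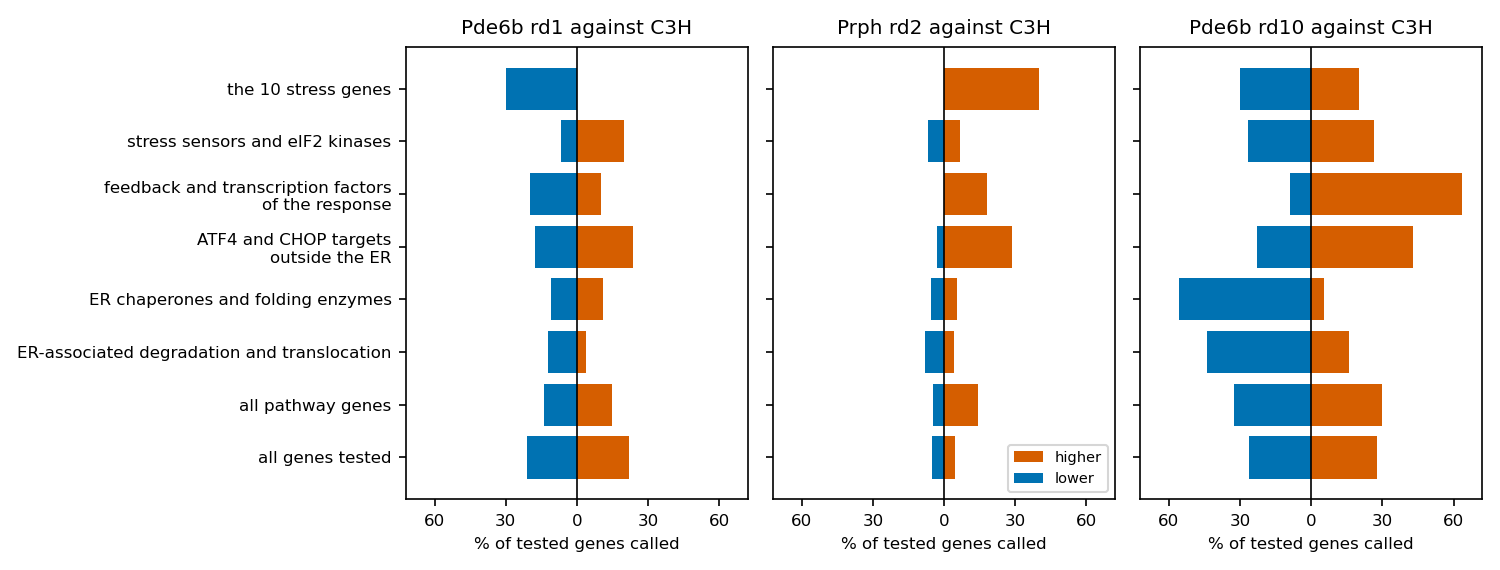
Share of the tested genes called (x axis, %) as higher (right, orange) or lower (left, blue) than C3H in each model, for the 10 genes, the 5 lists of other pathway genes, all 104 of them and all genes tested. In Pde6b rd10, 10 of 18 chaperones and folding enzymes were lower and 7 of 11 feedback regulators and transcription factors were higher.

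The 10 genes are protein-coding and lie, in GENCODE vM21 on GRCm38, at chr15:80255184-80257541 (Atf4), chr10:127290774-127296288 (Ddit3), chr2:152337422-152344032 (Trib3), chr2:119351229-119354381 (Chac1), chr6:7675169-7693254 (Asns), chr4:132492032-132510501 (Sesn2), chr11:5520659-5525893 (Xbp1), chr2:34771970-34777547 (Hspa5), chr12:44205559-44210326 (Dnajb9) and chr16:17130138-17132383 (Sdf2l1). Ddit3 overlaps Mars and Gm4189 on the opposite strand and a second annotated Ddit3 locus on the same strand, which was not analysed here. Sesn2 overlaps Gm12981 on the same strand, and Dnajb9 overlaps Mir5627 on the opposite strand. Whether the counting used strand is not given in the sources used here, so the values of these 3 genes may include or lose reads of their neighbours. None of the 10 genes was the host of any of the 12510 circular RNAs listed in these retinae, whereas 30 of the 104 other pathway genes were.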

How the data were processed

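RNA of 12 mouse retina samples was depleted of ribosomal RNA and sequenced from directional libraries. For the gene counts, the authors mapped the reads to GRCm38 and ran HTSeq 0.11.2 (submitters' processing notes), and these counts are not normalized. The deposited FPKM values divide these counts by gene length and reads on genes. For circular RNAs the authors deposited back-splice junction counts, used here for their host genes, and TPM values, not used here. Models were set against the 3 C3H samples, 1 at a time, in R 4.3.3 with edgeR 4.0.16 (TMM, filterByExpr, quasi-likelihood test), and models with each other by contrasts over all 12 samples, after tests on simulated data. Also tried were limma 3.58.1 on log2(FPKM + 1) and log2(FPKM + 0.1), DESeq2 1.42.0, other size factors, no filter, a replicate block, each replicate left out, other sets of samples and day as a covariate. Between 17049495 and 24755890 reads per sample limit the precision, which is lowest for Chac1, Trib3 and Sdf2l1. The 10 genes and the gene lists were chosen with earlier results of these data known. Of the other pathway genes, those named are, per comparison with C3H and direction, the 5 of smallest p among called genes with groups that do not overlap. Named outside this rule are Atf3 in Pde6b rd1, Eif2ak3 in Pde6b rd10 and Prph rd2, and Pdia6 and Herpud1 in Prph rd2. Pearson's r used log2(CPM + 0.5).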

Additional observations from a re-analysis of the deposited data

Results flagged for a closer look

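Differences between the models were tested directly for each of the 10 genes in 1 fit of all 12 samples, and 20 of the 30 differences had an adjusted p under 0.05 by edgeR's quasi-likelihood test, which is what marked them for a closer look. For Pde6b rd10 against Pde6b rd1, the log2 fold changes were -0.32 for Atf4, 0.34 for Ddit3, 0.65 for Trib3, 0.44 for Asns, 0.27 for Sesn2, -0.12 for Xbp1, -0.47 for Hspa5, 0.37 for Dnajb9 and -0.40 for Sdf2l1. For Pde6b rd10 against Prph rd2 they were -0.46 for Atf4, -0.39 for Xbp1, -0.75 for Hspa5 and -0.64 for Sdf2l1. For Pde6b rd1 against Prph rd2 they were -0.34 for Ddit3, -0.74 for Trib3, -0.38 for Asns, -0.34 for Sesn2, -0.27 for Xbp1, -0.29 for Hspa5 and -0.50 for Dnajb9. Each model was taken at its own day and the models differed in sex make-up, and no term for day or sex was in this fit. Groups of 3 samples are too small for a test of single samples that stand apart.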

How the results depend on the processing

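Over the 6 comparisons and all alternatives, the log2 fold changes of the 10 genes kept their direction and their side of the threshold in 764 cases, lost the call in 36, gained it in 25 and changed sign in 15. The sign changed only for values near 0. For Hspa5 in Pde6b rd1 it ranged from -0.0088 to 0.040 without 1 replicate, with the lowest value without Pde6b rd1 replicate 3, and became -0.0083 with all 12 samples in 1 fit, -0.018 against the same-day C3H sample alone and -0.028 with day as a covariate. For Dnajb9 in Pde6b rd10 it became 0.043 and 0.046 by limma on log2(FPKM + 1) and log2(FPKM + 0.1), 0.0095 with day as a covariate, and ranged from -0.062 to 0.048 without 1 replicate. For Chac1 in Pde6b rd10 against Pde6b rd1 it ranged from -0.13 to 0.0042 without 1 replicate. In Pde6b rd10 against Prph rd2, Ddit3 became -0.0081 with no filter and ranged from -0.065 to 0.069 without 1 replicate, and Trib3 ranged from -0.18 to 0.029. The cause was not tested.

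In Pde6b rd1 against C3H, 3 of the 10 genes were called, against 1 with DESeq2, 5 by limma with either pseudocount (4 higher, 1 lower), 1 against the same-day C3H sample alone, 1 with day as a covariate and 1 to 3 without 1 replicate. In Pde6b rd10 against C3H, 5 were called, against 8 by limma with either pseudocount. The shares of all genes tested that these alternatives called are not given here, so the counts under them have no background beside them. In Prph rd2 against C3H, 4 were called, against 0 with the same-day C3H sample alone, where the single sample is assumed to vary like the others. The thresholds of the study gave 0, 1 and 2 genes in these comparisons, 1 in Pde6b rd10 against Pde6b rd1, 2 in Pde6b rd10 against Prph rd2 and 1 in Pde6b rd1 against Prph rd2. Of the other pathway genes, 29, 65 and 20 were called in Pde6b rd1, Pde6b rd10 and Prph rd2 against C3H, and 67, 58 and 43 between the models in the order above. The thresholds of the study gave 1, 13, 2, 22, 14 and 6. Of all genes tested, 15%, 23.9%, 4.57%, 28.8%, 19.7% and 16.9% passed these thresholds in the same order. The same-day C3H sample alone gave 39 in Pde6b rd10 and 1 in Prph rd2, and day as a covariate gave 16 in Pde6b rd1. In Prph rd2, leaving out 1 replicate gave 8 (without C3H replicate 2) to 25.

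The replicate numbers are shared between groups. Same-numbered samples did not deviate together in Pde6b rd10 with C3H (r of -0.087 to -0.012) or in Prph rd2 with C3H (-0.088 to 0.060). In Pde6b rd1 with C3H, r was 0.053 to 0.119 for same numbers, with a mean of 0.080 against -0.040 for other numbers. There, each same-numbered pair was above every other pair, and whether the numbers pair those samples was not tested. With the replicate block, 2, 5 and 4 of the 10 genes were called against C3H in Pde6b rd1, Pde6b rd10 and Prph rd2, with Xbp1 in Pde6b rd1 at an adjusted p of 0.0580, and 13 other pathway genes were called in Prph rd2. The median log2 fold change of all genes tested in Pde6b rd1 against C3H was -0.011 with TMM and 0.059 by limma on log2(FPKM + 0.1). Counts of 38 to 88 for Chac1 limit what these samples can show for that gene.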
